A study of Mus musculus with 6 samples.

Results

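The 8 integrin chains described here, Itgae, Itgb7, Itgal, Itgb2, Itga4, Itgb1, Itga6 and Itgav, are those through which mouse T cells adhere to other cells and to matrix. They were followed on a whole-genome expression array in lymph node T cells. Members were all 24 probe sets, the array's units of measurement, whose annotation names 1 of these 8 genes and no other, among 18193 genes named on the array. The list was drawn up by gene name, with earlier results of these data already known. Of the 24 probe sets, 17 were bright enough to be tested and 7 were not.

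The samples were Ezh2 deficient T cells from lymph nodes, 3 arrays, set against 3 arrays of Ezh2 fl/fl T cells from the same organ. Ezh2 is the enzyme with which Polycomb repressive complex 2 puts methyl groups on lysine 27 of histone H3 at silent genes, and fl/fl is the usual notation for alleles flanked by loxP sites. The labels do not name the Cre or other means of deletion, and they give no strain, age, sex, sorting, pooling or separate animals, so that p-values measure the spread between these samples only, which may be technical. How completely the cells had lost Ezh2 is thus known here only from its mRNA.

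An integrin is a heterodimer of an alpha and a beta chain, and a chain reaches the cell surface only with a partner. The beta 7 chain (Itgb7) pairs with alpha E (Itgae, also called CD103), giving a receptor for E-cadherin that holds T cells in epithelia, and with alpha 4 (Itga4), giving the gut homing receptor for MAdCAM-1. Alpha L (Itgal) and beta 2 (Itgb2) form LFA-1, which binds ICAM proteins and serves in lymph node entry and in the contact with antigen presenting cells. The beta 1 chain (Itgb1) pairs with alpha 4 to form VLA-4, with alpha 6 (Itga6) to form a laminin receptor, and with alpha V (Itgav), which also pairs with other beta chains and releases TGF-beta from its latent form. In T cells Itgae is known as a marker of CD8 T cells, of some regulatory T cells and of tissue-resident memory cells, and its expression is raised by TGF-beta.

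Median deposited intensities of the 6 arrays ran from 163.3 to 188.1, the highest being that of Ezh2 fl/fl replicate 1, and all values below were quantile normalised. On the first principal component of the log2 values, which held 30.6% of the variance, Ezh2 fl/fl replicate 1 lay at 41.5 and the other 5 arrays between -15.1 and -1.48. Ezh2 mRNA fell in the deficient arrays: its probe set averaged 282 ± 6.55 in Ezh2 deficient and 688 ± 111 in Ezh2 fl/fl cells (SD, n = 3 each; log2 difference -1.16, limma p = 7.83e-06 unadjusted for this targeted gene, 0.0705 adjusted over all 27022 probe sets tested; exact permutation p = 0.10, the smallest that 3 arrays against 3 allow). Of 10 T cell markers, 9 were on the array and brighter than at least 92.6% of all probe sets. Their summed intensity ran from 71417 to 71833 in Ezh2 deficient and from 69003 to 72097 in Ezh2 fl/fl arrays.

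In the Ezh2 deficient T cells the lead Itgae probe set stood at 59.5% of its Ezh2 fl/fl level by the log2 difference. The ratio of the array means was 57.9%. The lead probe sets of the other 7 genes differed by 0.11 or less on the log2 scale. The lead probe set of a gene is the one of highest mean log2 value. None of the 17 tested integrin probe sets passed the threshold of an adjusted p under 0.05 over all 27022 probe sets by limma. Over the whole array 1 probe set passed, or 0.0037%, so the array as a whole gave almost no calls. At an unadjusted p under 0.05 there were 2 integrin probe sets, 1 of Itgae and lower in Ezh2 deficient cells and 1 of Itgb1 and higher, where 7.22% of all probe sets tested stood under that value (3.38% lower and 3.84% higher). The 3 arrays of each group did not overlap for 2 integrin probe sets, both lower in Ezh2 deficient cells, against 13.1% of all probe sets (6.54% lower). Among the 17, 10 differences were positive and 7 negative with a median of 0.03 on the log2 scale, beside a median of -0.0029 over all probe sets tested. Of the 7 negative differences, 4 were positive under the deposited scaling with median centring. Taken by lead probe sets, 4 genes were above 0 and 4 below. Under the deposited scaling with median centring 7 were above and 1 below. Over all genes tested that scaling likewise moved the split, from 5757 higher and 6518 lower to 7653 higher and 4620 lower. When replicate 1 of the fl/fl cells or replicate 2 of the deficient cells was left out, 2 integrin genes were above and 6 below. The plot of levels by array shows all tested probe sets.

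**Figure D1:**
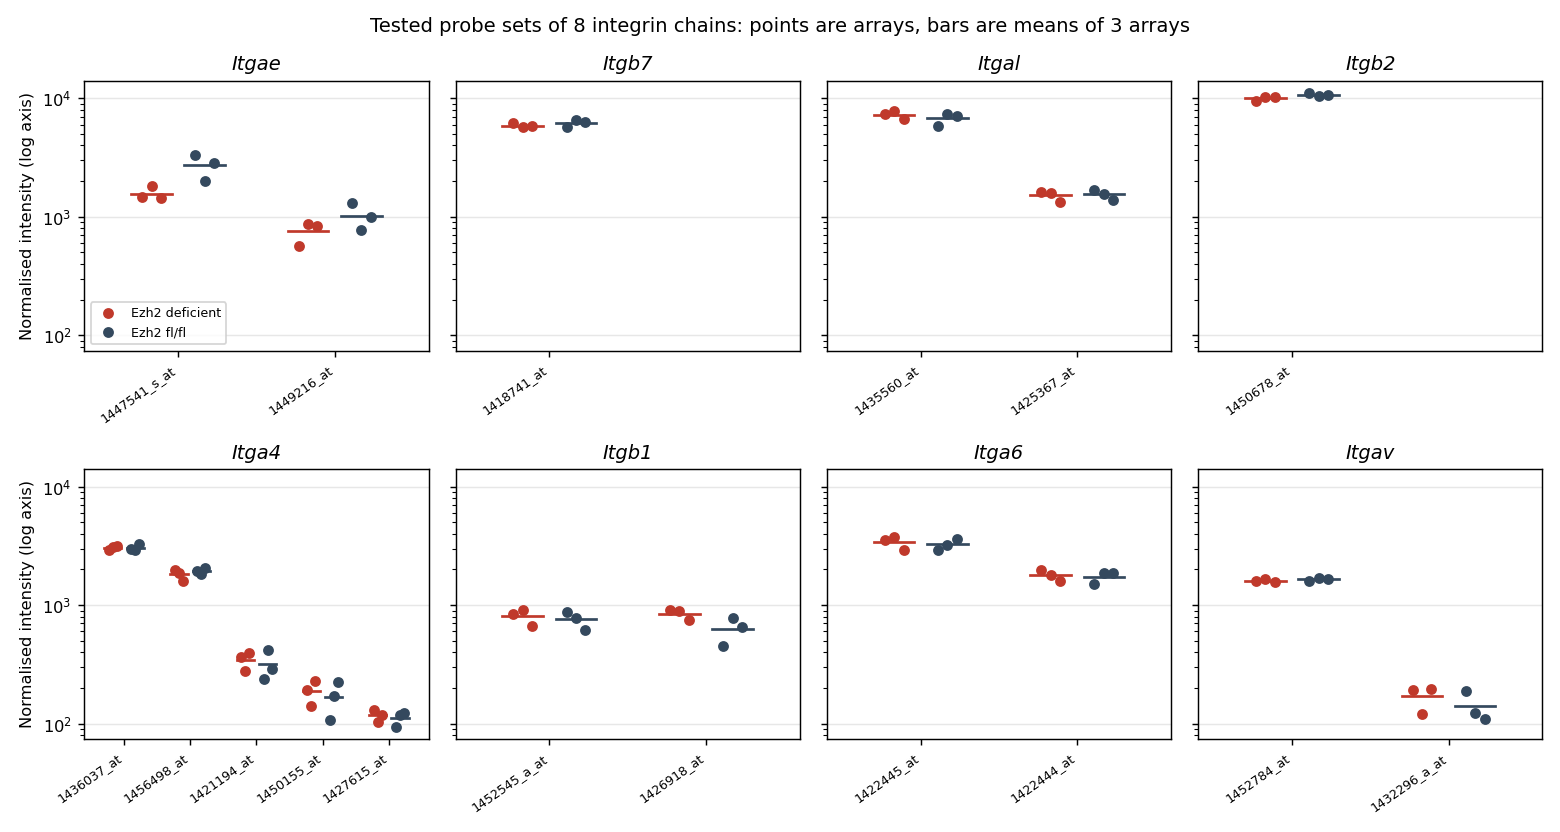
Normalised intensity (log axis) of the 17 tested probe sets of the 8 integrin chain genes, 1 panel per gene and 1 position per probe set, with a point for each array and a bar at the mean of 3 arrays. Ezh2 deficient arrays stand left of Ezh2 fl/fl arrays; the clearest gap is on the first Itgae probe set, at 1568 against 2709 on average, and most other pairs of bars lie side by side.

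Itgae, the alpha E chain, differed most among the 8. Its lead probe set, 1447541_s_at, read 1455, 1807 and 1441 in Ezh2 deficient replicates 1, 2 and 3, and 3318, 1985 and 2824 in Ezh2 fl/fl replicates 1, 2 and 3. Every deficient array was below every fl/fl array, but the gap between deficient replicate 2 and fl/fl replicate 2 was narrow. The means were 1568 ± 207 in Ezh2 deficient and 2709 ± 674 in Ezh2 fl/fl cells (SD, n = 3 each). The log2 difference was -0.75 (SE 0.17, 95% interval -1.13 to -0.36), or 59.5% of the fl/fl level, with a limma p of 0.00166 before adjustment and an adjusted p of 0.427, which does not pass. By that p it ranked 101 among 27022 probe sets, and of 12275 genes taken by their lead probe sets 38 others (0.310%) were lower by as much or more. A name ending in _s_at marks a probe set that can match several transcripts.

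The other Itgae probe set, 1449216_at, read 564, 869 and 832 in Ezh2 deficient replicates 1, 2 and 3, and 1306, 772 and 988 in Ezh2 fl/fl replicates 1, 2 and 3. Here the groups overlapped, since fl/fl replicate 2 was below 2 of the 3 deficient arrays. On this probe set the log2 difference was -0.41 (SE 0.20, 95% interval -0.87 to 0.05, limma adjusted p = 0.712). Within the fl/fl group the order of the 3 arrays was the same on both probe sets, with replicate 1 the highest and replicate 2 the lowest. Replicate 1 is the array that stood apart on the first principal component. Without it the lead difference was -0.59 (limma adjusted p = 0.520) and that of the other probe set -0.22 (limma adjusted p = 0.836). Without fl/fl replicate 2 they were -0.95 (limma adjusted p = 0.181) and -0.59 (limma adjusted p = 0.570). Over the 15 alternatives tried the lead probe set kept its sign and an adjusted p between 0.181 and 0.863.

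CD8 T cells and regulatory T cells carry Itgae, and in a bulk sample fewer cells of a type and less RNA per cell cannot be told apart. The summed intensity of the 3 CD8 markers Cd8a, Cd8b1 and Cd7 ran from 20602 to 21680 in Ezh2 deficient and from 22991 to 23702 in Ezh2 fl/fl arrays, without overlap. Cd8b1, the CD8 beta chain, was at a log2 difference of -0.17, Cd7 at -0.56 and Cd8a, the CD8 alpha chain, at -0.06. The regulatory T cell list held 11 names, with Izumo1r entered a second time as Folr4. From this list 9 genes were tested, 4 higher and 5 lower, with a median of -0.18. Their sum ran from 11472 to 13771 in Ezh2 deficient and from 10700.2 to 12340.3 in Ezh2 fl/fl arrays. Foxp3, the transcription factor that defines regulatory T cells, was at -0.28, with readings of 305, 255 and 228 in the deficient and 340.1, 322 and 318 in the fl/fl replicates. Cd8a overlapped between the groups, with deficient replicate 1 at 9848 and fl/fl replicate 3 at 9316. Of all probe sets tested, 6.54% lay lower and 6.55% higher without overlap. Every Foxp3, Cd8b1 and Cd7 reading in a deficient array was below every fl/fl reading. The same held for the regulatory T cell markers Tnfrsf18 (log2 difference -0.27) and Nrp1 (-0.48). The regulatory T cell markers Izumo1r and Ctla4 lay the opposite way without overlap. Izumo1r, also called folate receptor 4, read 4257, 3712 and 3348 in the deficient and 2026, 3036 and 2579 in the fl/fl replicates (log2 difference 0.57). The inhibitory receptor gene Ctla4 read 2104, 2202 and 1725 in the deficient and 1536, 1565 and 1429 in the fl/fl replicates (0.40). The part of either cell type in the Itgae difference was not tested.

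**Figure D2:**
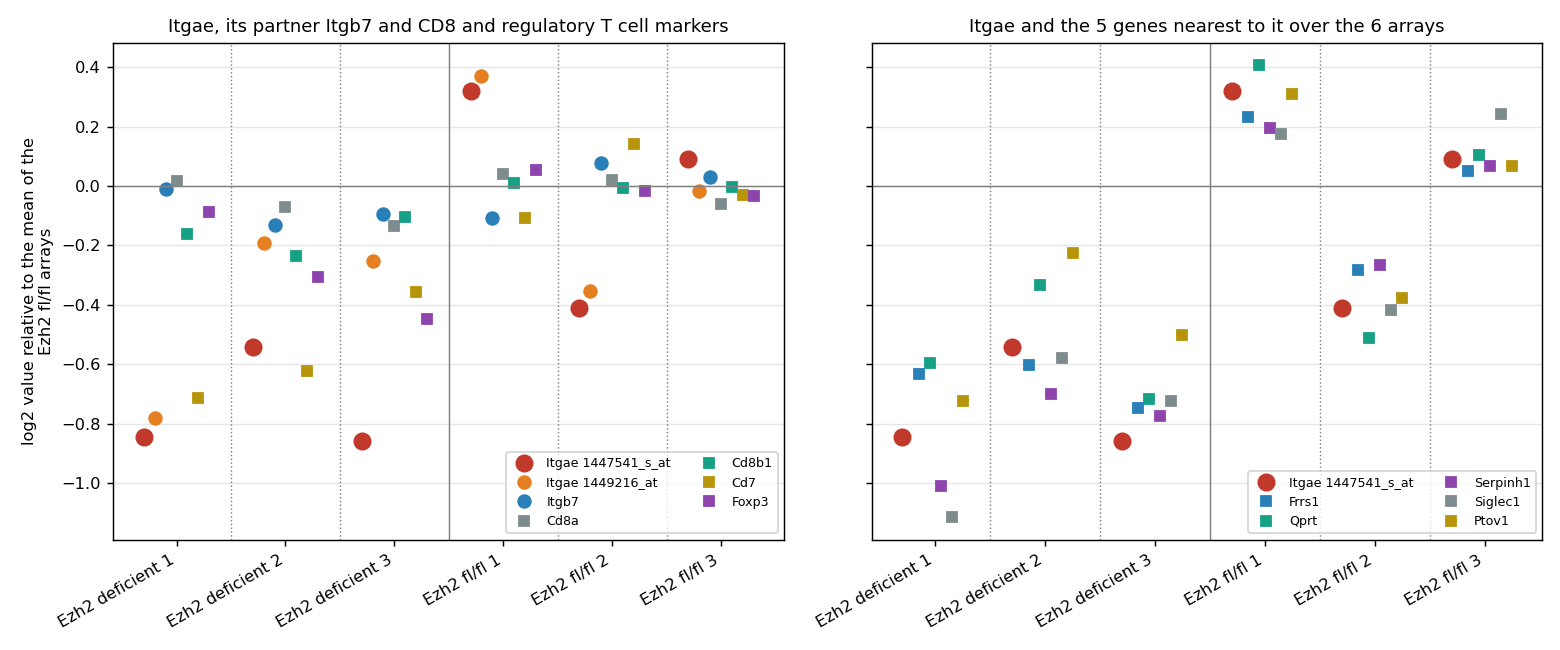
Log2 value of each array relative to the mean of the 3 Ezh2 fl/fl arrays; each column of points is 1 array, Ezh2 deficient on the left, and replicates have no order. Left, both Itgae probe sets, the beta 7 chain Itgb7, CD8 markers (Cd8a, Cd8b1, Cd7) and Foxp3: the lead Itgae probe set lies at -0.85, -0.54 and -0.86 in deficient arrays and at 0.32, -0.41 and 0.09 in fl/fl arrays, while Itgb7 stays between -0.13 and 0.08. Foxp3 is the only regulatory T cell marker shown, and of the 9 tested from that list 4 were higher and 5 lower. Right, the lead Itgae probe set and the 5 genes whose values over the 6 arrays were nearest to it.

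Among 12274 other genes, those whose lead probe set ran most like that of Itgae were Frrs1, Qprt, Serpinh1, Siglec1 and Ptov1. Likeness was the root mean square difference over the 6 arrays between log2 values centred on their own mean. It was 0.11 for Frrs1, 0.12 for Qprt and Serpinh1, and 0.15 for Siglec1 and Ptov1, where the median gene stood at 0.46. Frrs1, which encodes a ferric reductase, averaged 447 ± 25.7 in Ezh2 deficient and 740.3 ± 138 in Ezh2 fl/fl cells (log2 difference -0.66, limma adjusted p = 0.374). Qprt, an enzyme of NAD synthesis from quinolinate, averaged 412 ± 63.2 in Ezh2 deficient and 641 ± 208 in Ezh2 fl/fl cells (-0.55, limma adjusted p = 0.650). Serpinh1, a collagen chaperone, was at -0.83, Siglec1, a lectin of macrophages, at -0.80 and Ptov1 at -0.48, with means of 129, 81.0 and 247 in Ezh2 deficient and of 264, 176 and 366 in Ezh2 fl/fl cells. Siglec1, at 81.0 in Ezh2 deficient cells, was near the floor there and was bright enough to be tested only through its fl/fl readings. Likeness over 6 arrays includes the difference between the groups, and none of the 5 passed the threshold. The 13 dendritic and myeloid markers on the array had a summed intensity of 1525 to 1645 in Ezh2 deficient and of 1569 to 2022 in Ezh2 fl/fl arrays. The sum of 2022 was that of fl/fl replicate 1, while fl/fl replicates 2 and 3, at 1637 and 1569, lay within the deficient range. Of the 7 of these markers that were tested, 3 lay above 0 and 4 below. Their median log2 difference was -0.14, and they ran from the macrophage receptor Csf1r at -0.42 to the MHC class II chain H2-Ab1 at 0.26. The part of such cells in these readings was not tested.

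Itgb7, the partner of Itgae, had 1 probe set, which read 6161, 5672 and 5815 in Ezh2 deficient replicates 1, 2 and 3, and 5756, 6564 and 6347 in Ezh2 fl/fl replicates 1, 2 and 3. The groups overlapped, with fl/fl replicate 1 below 2 of the deficient arrays. The log2 difference was -0.08 (SE 0.07, 95% interval -0.23 to 0.07, limma adjusted p = 0.824), and it was 0.03 under the deposited scaling with median centring. The interval leaves out a loss as large as the point estimate of either Itgae probe set. Within each array the log2 value of Itgae minus that of Itgb7 lay at -0.83, -0.41 and -0.76 in the deficient replicates and at 0.43, -0.49 and 0.06 in the fl/fl replicates, relative to the fl/fl mean. Alpha E was thus lower against beta 7 in all 3 deficient arrays than in the mean of the fl/fl arrays, but fl/fl replicate 2 lay within the deficient range.

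LFA-1 is the main integrin of circulating T cells. Its beta chain Itgb2 read 9562, 10331 and 10331 in Ezh2 deficient replicates 1, 2 and 3, and 11017, 10467 and 10759.7 in Ezh2 fl/fl replicates 1, 2 and 3, where 2 arrays share a value because the probe set held the same rank on both. All deficient readings were below all fl/fl readings, by a log2 difference of only -0.09 (SE 0.05, 95% interval -0.21 to 0.02, limma adjusted p = 0.722). This separation depended on the normalisation. In the deposited intensities fl/fl replicate 1, at 10441, was below deficient replicates 2 and 3, at 10452 and 10529, and under median centring the difference was 0.03.

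The alpha L chain Itgal had 2 probe sets. The lead, 1435560_at, read 7359, 7785 and 6709 in Ezh2 deficient replicates 1, 2 and 3, and 5802, 7379 and 7072 in Ezh2 fl/fl replicates 1, 2 and 3. The groups overlapped, and the lowest reading was that of fl/fl replicate 1. The log2 difference was 0.11 (SE 0.09, 95% interval -0.10 to 0.33, limma adjusted p = 0.822), and without fl/fl replicate 1 it was 0.0093. The second probe set was at -0.03 (95% interval -0.26 to 0.20), with 0.05 under median centring. Within arrays Itgal minus Itgb2 lay at 0.30, 0.27 and 0.06 in the deficient and at -0.25, 0.17 and 0.07 in the fl/fl replicates, with overlap.

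The alpha 4 chain Itga4, shared by VLA-4 and the gut homing receptor, had 5 tested probe sets. The lead, 1436037_at, read 2945, 3099 and 3136 in Ezh2 deficient replicates 1, 2 and 3, and 2961, 2941 and 3274 in Ezh2 fl/fl replicates 1, 2 and 3. These 6 readings interleaved, and the log2 difference was 0.0020 (SE 0.07, 95% interval -0.15 to 0.16, limma adjusted p = 0.996). The second, 1456498_at, averaged 1815 ± 188 in Ezh2 deficient and 1943 ± 113 in Ezh2 fl/fl cells, a difference of -0.10. The other 3 were dimmer, with readings of 104 to 394 in Ezh2 deficient and 93.9 to 422 in Ezh2 fl/fl arrays, and had differences of 0.05 to 0.15 and limma p-values of 0.522 or more before adjustment. The groups overlapped on all 5. Relative to its partners within an array, the lead Itga4 probe set was at 0.08 against Itgb7 and at -0.09 against Itgb1 on average in the deficient arrays, each smaller than the SD of the fl/fl arrays (0.12 and 0.31).

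The beta 1 chain Itgb1 had 6 probe sets, of which 2 were tested. The lead, 1452545_a_at, read 849.6, 909 and 672 in Ezh2 deficient replicates 1, 2 and 3, and 870.2, 778 and 622 in Ezh2 fl/fl replicates 1, 2 and 3. The groups overlapped, and the log2 difference was 0.09 (SE 0.15, 95% interval -0.24 to 0.43, limma adjusted p = 0.912). The other, 1426918_at, read 901, 888 and 749 in Ezh2 deficient replicates 1, 2 and 3, and 454, 776 and 659 in Ezh2 fl/fl replicates 1, 2 and 3. Here too the groups overlapped, with the lowest reading in fl/fl replicate 1. The difference was 0.43 (SE 0.17, 95% interval 0.04 to 0.82), with a limma p of 0.0350 before adjustment and an adjusted p of 0.660. Without fl/fl replicate 1 it was 0.22, and its unadjusted p was no longer under 0.05 then, nor without deficient replicate 1 or 2, nor by eBayes without trend. The remaining 4 probe sets were too dim to test, from 6.1 to 212 in Ezh2 deficient and from 1.55 to 160.4 in Ezh2 fl/fl arrays, and overlapped between groups.

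The alpha 6 chain Itga6 had 2 tested probe sets. The lead, 1422445_at, read 3514, 3765 and 2911 in Ezh2 deficient replicates 1, 2 and 3, and 2941, 3229.8 and 3607 in Ezh2 fl/fl replicates 1, 2 and 3. The readings of both groups covered nearly the same range. Their log2 difference was 0.06 (SE 0.11, 95% interval -0.19 to 0.30, limma adjusted p = 0.931), and the second probe set was at 0.03 (95% interval -0.21 to 0.28). Against Itgb1 within the same array, Itga6 lay at -0.06, -0.05 and -0.0065 in the deficient replicates and at -0.34, -0.06 and 0.40 in the fl/fl replicates.

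The alpha V chain Itgav had 5 probe sets, 2 of them tested. The lead, 1452784_at, read 1601, 1659.8 and 1565 in Ezh2 deficient replicates 1, 2 and 3, and 1596, 1696 and 1667 in Ezh2 fl/fl replicates 1, 2 and 3. The readings overlapped and varied little in either group. Between the means the log2 difference was -0.04 (SE 0.07, 95% interval -0.20 to 0.13, limma adjusted p = 0.930), with 0.04 under median centring. The dimmer 1432296_a_at was at 0.22 (95% interval -0.28 to 0.72), and at 0.40 without fl/fl replicate 1, 0.39 without deficient replicate 2, 0.14 and 0.13 without deficient replicates 1 and 3, and 0.10 without fl/fl replicate 3. Its readings of 122 to 195 in Ezh2 deficient and 110.1 to 189 in Ezh2 fl/fl arrays overlapped. The 3 untested probe sets read 51.1 to 137 in Ezh2 deficient and 21.5 to 139.7 in Ezh2 fl/fl arrays, also with overlap. The plot of differences sets the 24 probe sets side by side.

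**Figure D3:**
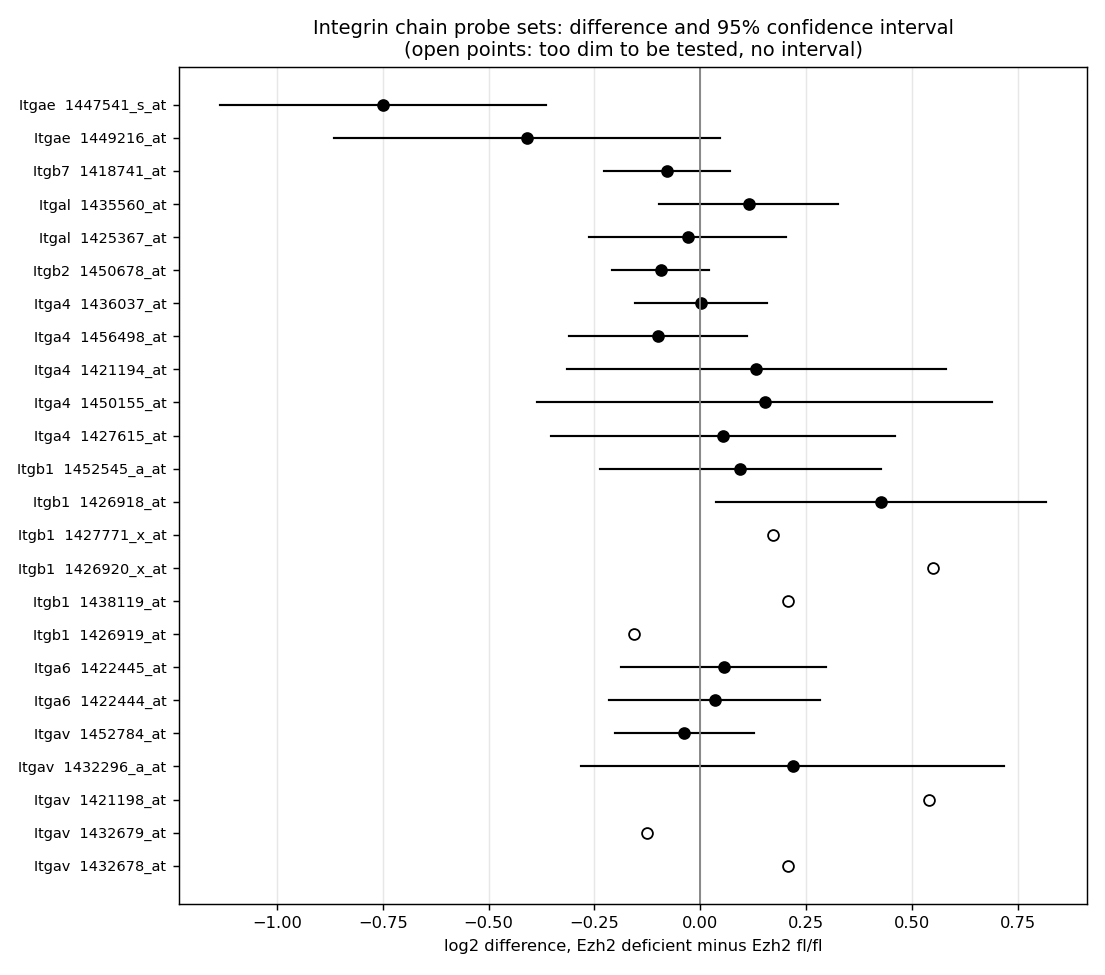
Log2 difference, Ezh2 deficient minus Ezh2 fl/fl, of the 24 integrin chain probe sets, grouped by gene and ordered by level within a gene, with 95% confidence intervals from limma for the 17 tested; open points are the 7 too dim to test. The interval excludes 0 for the lead Itgae probe set (-1.13 to -0.36) and for 1426918_at of Itgb1 (0.04 to 0.82), neither of which passed after adjustment over all probe sets.

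The RefSeq promoter table of build GRCm38.p6 held 4 of the 8 genes, Itgb7, Itga4, Itgb1 and Itgav. Polycomb repressive complex 2 is known to bind mainly at promoters rich in CG dinucleotides, so these were counted in the 250 bases before the start site that the table gives (C followed by G, which reads the same on both strands). For Itgb7 and Itgav that start lies inside the span of the gene in the RefSeq gene table, whose first transcript begins further upstream, so that other promoters of these genes were not looked at. There were 5 for Itgb7, 6 for Itga4, 18 for Itgav and 21 for Itgb1, against a median of 6 over 32851 promoters of the same length, of which 92.1% hold at least 1. At least as many as in Itgb7 were found in 55.6% of promoters, and at least as many as in Itgb1 in 16.3%. The promoters with the fewest and the most are printed below 5′ to 3′ on the strand of the gene, with each CG in capitals, to show this contrast between the start sites in the table. They lie at chr15:102231936-102232185 on the minus strand for Itgb7 and at chr8:128685404-128685653 on the plus strand for Itgb1. The arrays measure no binding or histone mark at them, and the lead probe sets of all 4 genes had adjusted p-values of 0.824 or more.
Itgb7: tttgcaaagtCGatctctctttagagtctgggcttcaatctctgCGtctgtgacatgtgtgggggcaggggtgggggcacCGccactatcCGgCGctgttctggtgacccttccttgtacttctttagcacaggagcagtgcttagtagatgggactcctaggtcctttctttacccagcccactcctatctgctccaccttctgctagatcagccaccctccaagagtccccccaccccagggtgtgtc
Itgb1: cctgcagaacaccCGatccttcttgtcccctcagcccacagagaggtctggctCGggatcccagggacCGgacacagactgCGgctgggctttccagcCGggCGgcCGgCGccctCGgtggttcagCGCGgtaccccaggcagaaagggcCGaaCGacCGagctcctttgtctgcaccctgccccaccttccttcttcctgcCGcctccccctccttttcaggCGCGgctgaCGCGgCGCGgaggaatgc

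The wider integrin pathway was read from 4 lists of genes, each gene by its lead probe set. None of their genes passed the adjusted threshold by limma, where 0% of the 12275 genes did by this measure, and at an unadjusted p under 0.05 there were 8.21% of all genes. Of 19 other integrin chains 9 were tested, 6 higher and 3 lower, with 0 at an unadjusted p under 0.05 and a median of 0.02 beside -0.01 over all genes. Under the deposited scaling the split was 3 higher and 6 lower. Itgb5, a partner of alpha V, was at 0.38 (limma adjusted p = 0.726). It read 2266, 1987 and 1859 in Ezh2 deficient replicates 1, 2 and 3, and 1093, 2262 and 1513 in Ezh2 fl/fl replicates 1, 2 and 3, on an _x_at probe set, while its other 3 probe sets were too dim to test. Itga7, a laminin-binding chain, averaged 169 ± 5.70 in Ezh2 deficient and 135 ± 28.0 in Ezh2 fl/fl cells (SD, n = 3 each), a log2 difference of 0.27. It was near the floor, with deficient replicate 3 and fl/fl replicate 3 both at 164 and fl/fl replicate 1 at 108. The myeloid chains Itgax and Itgam, which also pair with beta 2, were near the floor, with Itgax at 137 in Ezh2 deficient and 133 in Ezh2 fl/fl cells on average and Itgam untested.

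Of 40 genes that link integrins to the cytoskeleton or switch them on, 34 were tested, 9 higher and 25 lower with a median of -0.05. Under the deposited scaling with median centring the split was 24 higher and 10 lower. Over all genes tested that scaling gave 7653 higher and 4620 lower. In the fit as reported, 1 of the 34 was higher and 1 lower at an unadjusted p under 0.05. Ptk2b, a focal adhesion family kinase, averaged 1054 ± 79.3 in Ezh2 deficient and 889.9 ± 78.0 in Ezh2 fl/fl cells (log2 difference 0.23, limma adjusted p = 0.677), and -0.10 was found on its other probe set. Flna, the actin crosslinker filamin A that binds integrin beta tails, averaged 4552 ± 188 in Ezh2 deficient and 5229 ± 557 in Ezh2 fl/fl cells (-0.19, limma adjusted p = 0.681).

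Of 24 integrin ligand genes 13 were tested, 6 higher and 7 lower with a median of -0.01. At an unadjusted p under 0.05 there was 1, and it was lower. This was Cdh1, which encodes E-cadherin, the ligand of the alpha E beta 7 receptor. It read 77.3, 94.6 and 125 in Ezh2 deficient replicates 1, 2 and 3, and 272, 149 and 144 in Ezh2 fl/fl replicates 1, 2 and 3. The groups did not overlap, and the highest reading was again fl/fl replicate 1. Cdh1 had a log2 difference of -0.67 (limma adjusted p = 0.636). Its mean of 99.1 in Ezh2 deficient cells was near the floor. It was bright enough to be tested only through its fl/fl readings, at a mean of 188, which limits this p-value and separation. Icam2, a ligand of LFA-1, was at -0.15. Of 26 TGF-beta pathway and Runx genes 21 were tested, 12 higher and 9 lower, with 0 at an unadjusted p under 0.05 and a median of 0.03. Under the deposited scaling with median centring the split was 16 higher and 5 lower with a median of 0.11, beside 0.05 over all genes. Without fl/fl replicate 1 the split was 9 higher and 12 lower. Smad7, an inhibitor of TGF-beta signalling, averaged 2290 ± 78.0 in Ezh2 deficient and 2628 ± 281 in Ezh2 fl/fl cells (-0.19, limma adjusted p = 0.695). Its other probe set was at -0.43. That one overlapped between groups, with readings of 1376, 1051 and 726 in the deficient and 2529, 765 and 1357 in the fl/fl replicates. Skil, another such inhibitor, was at -0.13.

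**Figure D4:**
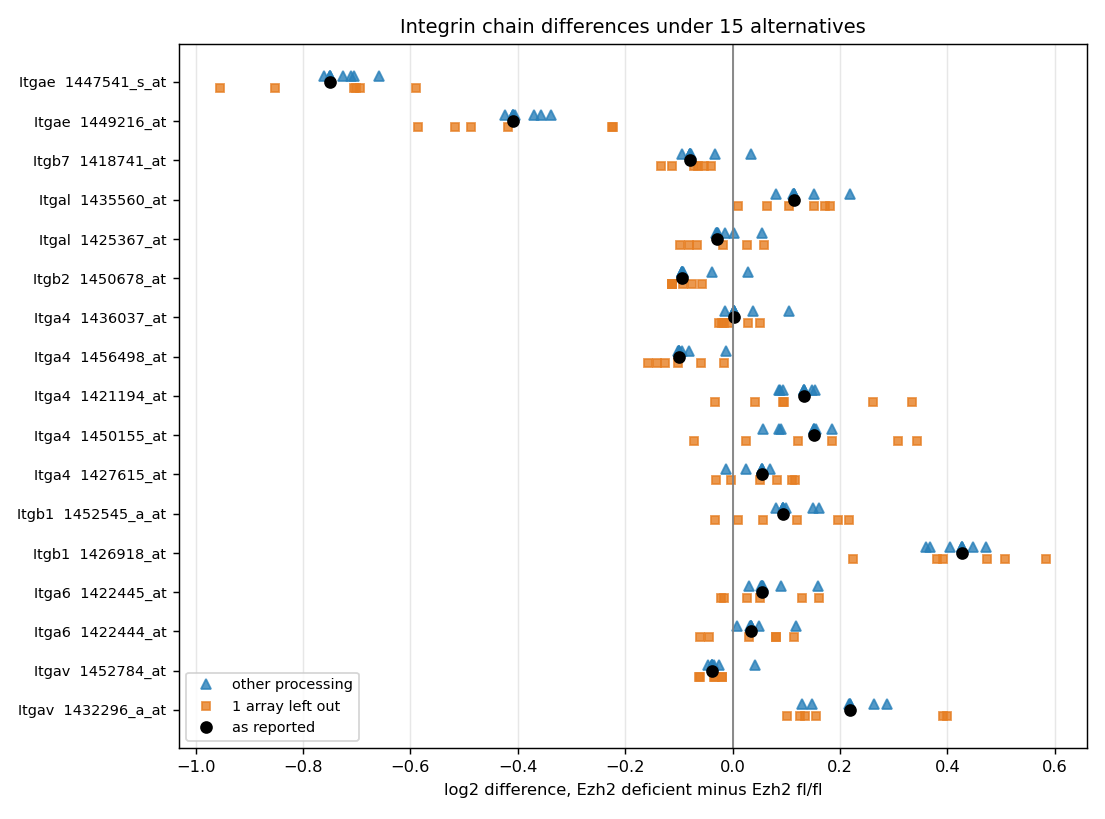
Log2 difference, Ezh2 deficient minus Ezh2 fl/fl, of the 17 tested integrin probe sets as reported (black) and under up to 15 alternatives: other processing (triangles) and 1 array left out (squares). The lead Itgae probe set stays between -0.95 and -0.59 and 1426918_at of Itgb1 between 0.22 and 0.58, while most other probe sets lie near 0 and several cross it.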

How the data were processed

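Members, lists and alternatives were chosen with earlier results of these data known. The authors deposited linear intensities, 1 per probe set and array, and their software is not given in the sources used here. The deposited trimmed mean was 500.002 on every array (2% trimmed at each end). Since array medians differed by 15.2% (tolerance 10%), values were quantile normalised and turned into log2(intensity + 43.3), the 20th percentile of the deposited values, a scale that understates fold changes of dim genes. The 64 control probe sets and those with a mean log2 value below the 40th percentile were left out, leaving 27022. Limma (version 3.58.1, R 4.3.3) fitted Ezh2 deficient minus Ezh2 fl/fl with eBayes and an intensity trend, two-sided, adjusted by Benjamini-Hochberg over all 27022. On 27022 simulated probe sets this comparison recovered 40% of 1.5-fold, 66% of 2-fold, 96% of 4-fold and 96% of 5-fold changes (50 each), with 10 false calls among 159. The data gave 1 call where the simulation gave 159, so the adjusted threshold let through larger p-values in the simulation. Recovery in the data may thus be lower than these shares. Genes were named from the platform annotation, for 34945 probe sets with 1 symbol. Named genes were the members, Ezh2, the 2 genes of smallest p in each of 4 pathway lists (other integrin chains, activation and adaptors, ligands, TGF-beta), markers, and the 5 genes nearest to Itgae. The text also names, with values already known: Cd8a, Cd8b1, Cd7, Foxp3, Tnfrsf18, Nrp1, Izumo1r, Ctla4, Csf1r, H2-Ab1, Itgax and Itgam. Of the other marker lists, the sums ran from 3332 to 3791 in Ezh2 deficient and 3389.6 to 4078 in Ezh2 fl/fl arrays for 3 CD4 markers, from 1479.7 to 1543 in Ezh2 deficient and 1412 to 1548 in Ezh2 fl/fl arrays for 9 B cell markers, from 6665 to 7249 in Ezh2 deficient and 5826 to 7056 in Ezh2 fl/fl arrays for 6 natural killer cell markers, and from 2252 to 2443.5 in Ezh2 deficient and 2287 to 2689 in Ezh2 fl/fl arrays for 10 markers of stroma, vessels and platelets. The number of arrays limits the precision.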

Additional observations from a re-analysis of the deposited data

How the results depend on the processing

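No integrin probe set was called under any of the 15 alternatives, which were 2 other scalings, 2 pseudocounts, 2 filters, eBayes without trend, robust eBayes, array weights and each of the 6 arrays left out. Over the whole array, the 1 call became 3 under the deposited scaling, with robust eBayes and with array weights, 2 with median centring, and 1 to 6 with an array left out, with 6 when Ezh2 deficient replicate 2 was dropped and 3 when Ezh2 fl/fl replicate 1 was. Integrin probe sets at an unadjusted p under 0.05 numbered 1 by eBayes without trend and 1 to 3 with an array left out. Those whose groups did not overlap numbered 1 under the deposited scaling and with median centring, and 2 to 4 with an array left out. The 4 came without Ezh2 fl/fl replicate 1 or 2. Over all 12275 genes by lead probe sets, 786 were higher and 957 lower without overlap in the fit as reported. These became 1340 and 1703 without Ezh2 fl/fl replicate 1, and 1463 and 1676 without replicate 2. At an unadjusted limma p under 0.05, 481 genes were higher and 527 lower as reported, and 579 and 522 without Ezh2 fl/fl replicate 2. Of 251 recomputed differences 229 kept their sign. Median centring turned Itgb7 to 0.034, Itgb2 to 0.029, Itgav (1452784_at) to 0.042 and Itgal (1425367_at) to 0.054; array weights turned Itgal (1425367_at) to 0.0032 and Itga4 (1436037_at) to -0.014; the deposited scaling turned Itga4 (1427615_at) to -0.013. With an array left out, Itgal (1425367_at) ran from -0.098 to 0.058. The Itga4 probe sets 1436037_at, 1421194_at, 1450155_at and 1427615_at ran from -0.025 to 0.051, -0.033 to 0.33, -0.073 to 0.34 and -0.031 to 0.12. Itgb1 (1452545_a_at) ran from -0.032 to 0.22, and the Itga6 probe sets 1422445_at and 1422444_at from -0.022 to 0.16 and -0.061 to 0.11. The cause was not tested. No paired analysis was possible because the labels number the 6 arrays in a single run and share no number between groups. Detection calls were not used, so the lowest intensities have no measured background.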
